A study of Mus musculus with 9 samples.

Results

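Nr4a1, Sik1, Crem, Irs2, Klf15, Bcl6, Cebpb, Cited2 and Sesn1 encode regulators that the liver uses when an animal is fasted or when the second messenger cAMP is raised. These 9 genes were taken by name from the 55401 genes of the table, and all 9 had a mean of at least 0.5 FPKM over the libraries. FPKM counts fragments per kilobase of transcript and corrects for library size, so levels of different genes can be set side by side. The genes were chosen with the difference between the groups already known, that is, on the same liver values that are given here. Their values are therefore given as a description, with no test.

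RNA was measured in the livers of 4 Ncf1Lyz-/- mice (Ncf1-floxed, Lyz-Cre-positive) and 5 WT mice (Lyz-Cre-negative littermates with the same floxed Ncf1). All were C57BL/6 females of 10 to 12 weeks, given liquid diet for 5 days, ethanol diet (5%, v/v) for the next 10 and 1 gavage of 5 g/kg ethanol on day 11, and the liver was taken 9 hours after it. Lyz-Cre acts in myeloid cells, that is macrophages and neutrophils, whereas the RNA came from whole liver. No library of pair-fed mice was included, so both groups had been fed ethanol.

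In the fasted liver, glucagon and catecholamines raise cAMP, which activates protein kinase A. The kinase phosphorylates the transcription factor CREB, and its coactivators, the CRTC proteins, enter the nucleus. CREB binds the cAMP response element of genes for glucose production and of regulators such as Nr4a1, Sik1, Crem and Irs2. Salt-inducible kinases such as Sik1 return CRTC to the cytoplasm and close the loop. Insulin opposes the program through Akt, which keeps FOXO factors out of the nucleus, and glucocorticoids add to it through their own receptor.

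The libraries held 15.4 to 20.3 M fragments (M, mega), recovered from the steps of low values. The 4 Ncf1Lyz-/- libraries had 18.8 to 20.3 M and lay with WT1 and WT2 (18.3 to 18.8 M), whereas WT3, WT4 and WT6 had 15.4 to 16.1 M. In a transcript 1 kilobase long, 1 fragment amounted to 0.0493 to 0.0649 FPKM. Ncf1, the targeted gene, had 0.368, 0.333, 0.440 and 0.885 FPKM in NKO2 to NKO5, and 1.83, 1.16, 0.492, 0.366 and 1.10 FPKM in WT1, WT2, WT3, WT4 and WT6. The loxP sites lie in introns 1 and 8 and the FPKM covers the whole gene. The groups overlapped (log2 difference −0.74, SE 0.44, adjusted p = 0.890 by limma; two-sided exact permutation test, p = 0.175), through WT3 and WT4. In the 6 libraries of higher depth, which leave out WT3, WT4 and WT6, the groups did not overlap, and the difference was −1.44. Of 6 hepatocyte markers, 5 were found by name, and these summed to 46540 to 60530 FPKM in Ncf1Lyz-/- livers and to 42210 to 55510 FPKM in WT livers. The 13 macrophage and Kupffer cell markers summed to 160 to 328.9 FPKM and to 131 to 402.9 FPKM, highest in WT1 and WT2. No marker list had a gene at an adjusted p under 0.05 by limma (1 endothelial marker was at an unadjusted p under 0.05). No marker found by name was at 0 in all libraries.

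The cAMP response element has the full site TGACGTCA, and CREB also binds the 5-base sites TGACG or CGTCA, of which a full site holds both. The 5-base sites were searched, which covers both strands, in the RefSeq promoter windows of build GRCm38.p6, from 250 bases before to 50 after each start. Of the 9 genes, 7 had a window and 5 of these held a 5-base site, against 20.8% of all 32851 windows and 35.7% of the 8687 tested genes with a window. Sik1 and Crem had no entry. The bases before the start are shown for the 4 genes with more than 1 such site, because they carry the letters of the element next to their start. These sites are in capitals, and each sequence runs 5′ to 3′ on the gene's strand up to the base before the start. The windows are Nr4a1 at chr15:101266596-101266845 (plus strand), Cebpb at chr2:167688665-167688914 (plus strand), Klf15 at chr6:90462326-90462575 (plus strand) and Bcl6 at chr16:23988853-23989102 (minus strand). The Nr4a1 window lies within the annotated span of the gene, before a later start, and the other 3 lie just before the first base of the gene. None overlapped an annotated exon.
Nr4a1: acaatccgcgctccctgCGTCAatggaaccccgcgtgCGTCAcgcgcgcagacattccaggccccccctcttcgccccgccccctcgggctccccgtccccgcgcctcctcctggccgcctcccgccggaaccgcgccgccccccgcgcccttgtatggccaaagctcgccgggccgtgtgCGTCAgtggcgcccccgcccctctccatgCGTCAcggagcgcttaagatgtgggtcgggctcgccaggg
Cebpb: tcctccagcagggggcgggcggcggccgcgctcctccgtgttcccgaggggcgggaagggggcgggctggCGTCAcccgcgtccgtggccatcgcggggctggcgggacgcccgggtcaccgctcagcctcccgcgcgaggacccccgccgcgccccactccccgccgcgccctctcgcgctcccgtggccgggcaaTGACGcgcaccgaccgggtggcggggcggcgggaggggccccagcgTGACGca
Klf15: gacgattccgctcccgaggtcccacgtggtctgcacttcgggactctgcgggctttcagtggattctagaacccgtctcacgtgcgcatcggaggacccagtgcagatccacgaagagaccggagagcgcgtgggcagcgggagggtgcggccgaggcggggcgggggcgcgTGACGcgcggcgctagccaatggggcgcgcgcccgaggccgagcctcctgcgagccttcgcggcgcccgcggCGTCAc
Bcl6: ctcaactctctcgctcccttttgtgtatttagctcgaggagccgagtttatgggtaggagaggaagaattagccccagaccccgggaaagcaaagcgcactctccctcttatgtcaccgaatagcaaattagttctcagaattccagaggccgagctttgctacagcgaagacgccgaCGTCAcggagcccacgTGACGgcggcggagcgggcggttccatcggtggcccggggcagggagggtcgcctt

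Nr4a1 held 4 of the 5-base sites, which began at −233, −213, −69 and −40 from the start. At least 4 were held by 0.231% of all windows and 0.633% of the tested genes. Cebpb held 3, at −180, −53 and −7, where at least 3 were held by 1.03% of windows and 2.59% of tested genes. Klf15 held 2, at −78 and −6, and Bcl6 held 2, at −72 and −56, and at least 2 were held by 5.01% of windows and 10.8% of tested genes. Sesn1 held 1, at −61, in 1 of its windows, and Irs2 and Cited2 held none. The Irs2 window, chr8:11008880-11009179, lies outside the annotated span of the gene, and the bases before the start of Cited2 overlapped an annotated exon. No gene of the 7 held the full site TGACGTCA, which 1.79% of windows held. The FOXO motif, TGTTTAC or GTAAACA, was found in 1 gene, Sesn1, at 22 bases after a start, and in 3.65% of windows. A match describes the letters of the window and was not tested as a binding site.

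**Figure D1:**
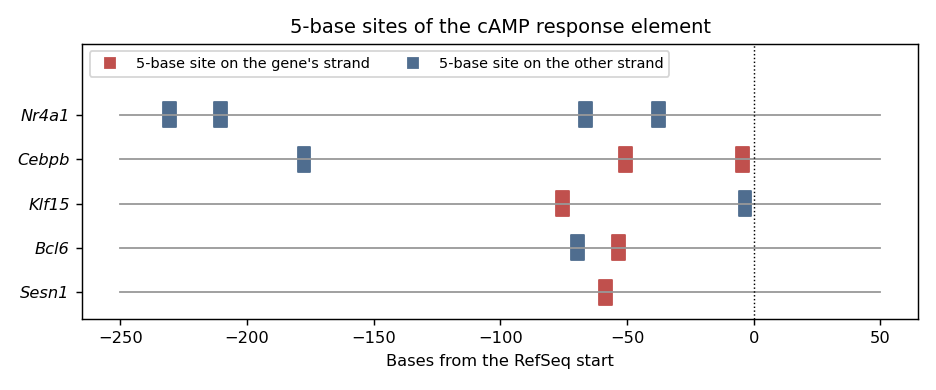
The 5-base sites of the cAMP response element (boxes, coloured by strand) in the promoter windows of the 5 genes that held one, by distance in bases from the RefSeq start (dotted line). Nr4a1 has 4 boxes, Cebpb 3, Klf15 and Bcl6 2 each, and Sesn1 1.

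Over all 9 livers, Klf15 had the highest mean level of the 9 genes (34.0 FPKM), followed by Cebpb (13.8 FPKM), Sik1 (9.89 FPKM), Irs2 (6.03 FPKM) and Nr4a1 (4.81 FPKM). Cited2 (3.54 FPKM), Crem (2.30 FPKM), Sesn1 (2.24 FPKM) and Bcl6 (1.57 FPKM) were lower. Klf15 was above Cebpb in all 9 libraries, the only step of this order that held in each. Sik1 was above Irs2 in 8 libraries, and Cebpb was above Sik1 in 7. Nr4a1 was above Cited2 in 4 of the 9 libraries and Crem above Sesn1 in 5, so these neighbours did not differ beyond the spread between livers. Nr4a1 varied most, with a level 63.6 times higher in the highest than in the lowest liver. Irs2 varied 10.3-fold, Klf15 1.96-fold, and the other 6 genes between 2.44-fold and 3.73-fold.

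Of the 9 genes, 8 had a lower mean log2 level in Ncf1Lyz-/- than in WT livers, as did 49.5% of all 12350 genes tested. Their median log2 difference was −0.35, and that of all genes tested was 0.00. Log2 differences are those of log2(FPKM + 0.1), Ncf1Lyz-/- minus WT, which understates the difference of genes at low levels. Every Ncf1Lyz-/- liver lay below every WT liver for 2 of the 9, Nr4a1 and Sik1, as for 1.5% of all genes. No gene of the 9 had every Ncf1Lyz-/- liver above every WT liver, which 0.713% of all genes had. Because the 9 were selected on this contrast, nothing is read from their shares. Over the whole table, limma placed 3.73% of genes lower and 2.17% higher at an unadjusted p under 0.05. At an adjusted p under 0.05 it called 0.0081%, which is 1 gene, the mitochondrial mt-Tl2. No such call is given for the 9. In whole liver, fewer cells of a type and less RNA per cell cannot be told apart.

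**Figure D2:**
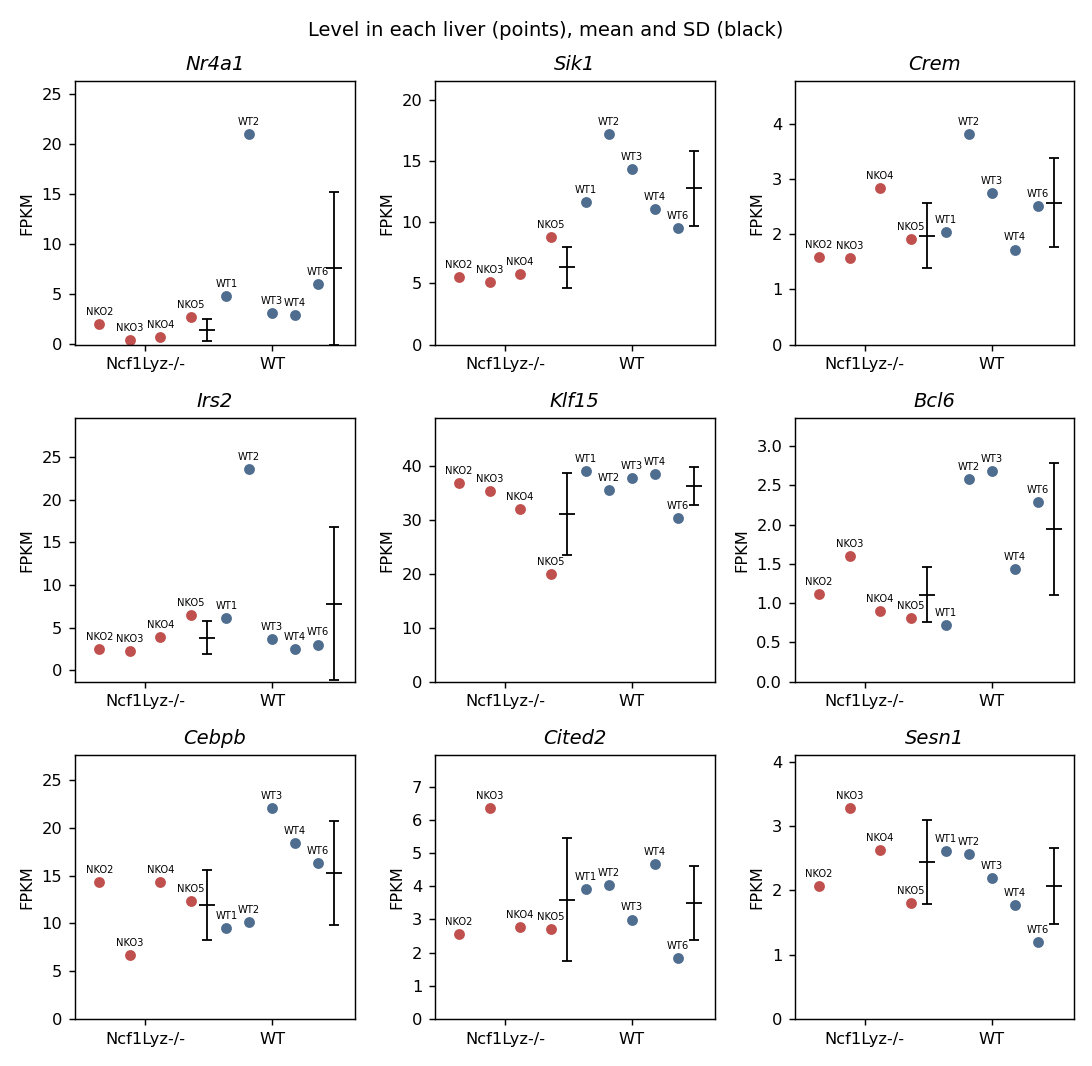
Level in FPKM of each of the 9 genes in each liver (points, labelled by library), with the mean and SD of the group beside them (black), for 4 Ncf1Lyz-/- and 5 WT livers. Points of the groups do not overlap for Nr4a1 and Sik1, and WT2 stands far above the other livers for Nr4a1 and Irs2.

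**Figure D3:**
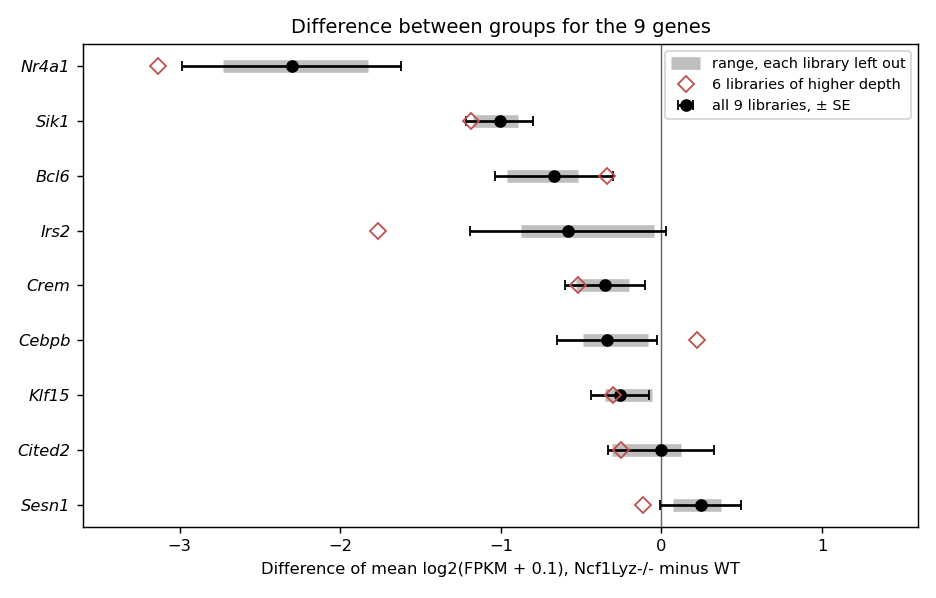
Difference of mean log2(FPKM + 0.1), Ncf1Lyz-/- minus WT, for each gene with its standard error over 4 and 5 livers (black), the range when each library was left out (grey) and the value in the 6 libraries of higher depth (diamonds). The grey ranges of Irs2, Klf15, Sesn1 and Cebpb end near 0, that of Cited2 crosses it, and the diamonds of Cebpb and Sesn1 lie on the other side of 0 from the black points.

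Sik1, at chr17:31844250-31855804 on the minus strand (GRCm38 here and for the genes that follow), encodes a salt-inducible kinase that CREB induces and that holds back the CRTC coactivators. It had 5.49, 5.15, 5.78 and 8.80 FPKM in NKO2 to NKO5. In WT1, WT2, WT3, WT4 and WT6 it had 11.6, 17.2, 14.3, 11.0 and 9.55 FPKM. Hence the highest Ncf1Lyz-/- liver, NKO5, stayed under the lowest WT liver, WT6, by a narrow margin, and the other 3 lay well under it. The means were 6.31 ± 1.68 FPKM (SD, n = 4) and 12.8 ± 3.04 FPKM (SD, n = 5), a ratio of 0.495. The log2 difference was −1.01 (SE 0.21), between −1.18 and −0.89 when each library was left out. It was −1.19 in the 6 libraries of higher depth and −0.89 against WT3, WT4 and WT6 alone.

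Nr4a1, at chr15:101254269-101274795 on the plus strand, encodes the orphan nuclear receptor Nur77, an immediate early gene that glucagon and cAMP induce in mouse liver and that activates genes of glucose production. Macrophages and T cells induce it as well. Its level was 1.95, 0.331, 0.619 and 2.69 FPKM in NKO2 to NKO5. The WT1, WT2, WT3, WT4 and WT6 livers had 4.77, 21.0, 3.07, 2.91 and 5.96 FPKM. NKO3 and NKO4 were lowest, NKO5 lay just under WT4, and WT2 was far above the rest. The ratio of means was 0.185 (1.40 ± 1.11 FPKM, SD, n = 4, against 7.55 ± 7.64 FPKM, SD, n = 5), and the SD of the WT livers exceeded their mean. On the log2 scale the difference was −2.30 (SE 0.68), or −1.83 to −2.73 when each library was left out. It was −3.14 in the 6 libraries of higher depth and −1.75 against WT3, WT4 and WT6.

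Crem, at chr18:3266048-3337748 on the minus strand, encodes activator and repressor forms of the cAMP response element modulator, among them the early repressor ICER, which cAMP induces from an internal promoter. The table gives 1 level for the whole gene and does not separate these forms. Crem had 1.58, 1.57, 2.83 and 1.91 FPKM in NKO2 to NKO5, and 2.04, 3.82, 2.74, 1.72 and 2.51 FPKM in WT1, WT2, WT3, WT4 and WT6. The groups overlapped, since NKO4 was above every WT liver but WT2. Means were 1.97 ± 0.591 FPKM (SD, n = 4) and 2.56 ± 0.803 FPKM (SD, n = 5), with a log2 difference of −0.35 (SE 0.25) that became −0.20 without WT2 and −0.53 without NKO4.

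Irs2, at chr8:10984681-11008458 on the minus strand, encodes the insulin receptor substrate that carries the insulin signal in the fasted liver and that both CREB and FOXO factors induce. Its level was 2.52, 2.30, 3.95 and 6.50 FPKM in NKO2 to NKO5. The WT livers had 6.17 FPKM in WT1, 23.7 in WT2, 3.67 in WT3, 2.49 in WT4 and 3.02 in WT6. Apart from WT2, the groups covered much the same range. The mean of WT livers, 7.80 ± 8.98 FPKM (SD, n = 5), had an SD larger than itself, beside 3.82 ± 1.93 FPKM (SD, n = 4) in Ncf1Lyz-/- livers. The log2 difference of −0.58 (SE 0.61) was −0.05 without WT2, −0.39 without NKO3 and −0.87 without NKO5. It was −1.76 against WT1 and WT2 and 0.21 against WT3, WT4 and WT6, so its direction depended on the WT livers used.

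Klf15, at chr6:90462576-90475238 on the plus strand, encodes a Krüppel-like factor that fasting and glucocorticoids induce and that drives amino acid breakdown and glucose production in mouse liver. It was the most abundant and least variable of the 9. NKO2 to NKO5 had 36.9, 35.3, 32.1 and 19.97 FPKM, and WT1, WT2, WT3, WT4 and WT6 had 39.1, 35.6, 37.8, 38.6 and 30.3 FPKM. NKO5 stood alone below all other livers. The means were 31.1 ± 7.65 FPKM (SD, n = 4) and 36.3 ± 3.59 FPKM (SD, n = 5), and the log2 difference of −0.26 (SE 0.18) was −0.06 without NKO5.

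Bcl6, at chr16:23965052-23988852 on the minus strand, encodes a zinc finger repressor that holds down fatty acid oxidation genes in mouse hepatocytes, where it opposes PPAR-alpha, and that also acts in B cells and macrophages. It had the lowest mean level of the 9. Its FPKM was 1.12, 1.599, 0.896 and 0.816 in NKO2 to NKO5, and 0.720, 2.58, 2.68, 1.43 and 2.28 in WT1, WT2, WT3, WT4 and WT6. WT1 was the lowest liver of all, and of the other 4 WT livers only WT4 was below the highest Ncf1Lyz-/- liver, NKO3. Means were 1.11 ± 0.352 FPKM (SD, n = 4) and 1.94 ± 0.839 FPKM (SD, n = 5). The log2 difference was −0.67 (SE 0.37), −0.96 without WT1, and −0.34 in the 6 libraries of higher depth, which hold WT1.

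Cebpb, at chr2:167688915-167690418 on the plus strand, encodes a CCAAT/enhancer-binding protein that CREB, glucocorticoids and interleukin-6 induce, in hepatocytes and in macrophages. Ncf1Lyz-/- livers had 14.4 FPKM in NKO2, 6.69 in NKO3, 14.3 in NKO4 and 12.4 in NKO5. WT livers had 9.50 in WT1, 10.1 in WT2, 22.1 in WT3, 18.4 in WT4 and 16.3 in WT6. Within WT, the livers divided as their depth did, with a mean of 9.80 FPKM in WT1 and WT2 and 19.0 FPKM in WT3, WT4 and WT6. All 4 Ncf1Lyz-/- livers were below the latter 3 (log2 difference −0.71), and in the 6 libraries of higher depth the difference was 0.22. The pooled means of 11.9 ± 3.63 FPKM (SD, n = 4) and 15.3 ± 5.42 FPKM (SD, n = 5) gave −0.34 (SE 0.31), or −0.08 without NKO3 and −0.19 without WT3. The part of depth in this result was not tested.

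Cited2, at chr10:17723218-17725674 on the plus strand, encodes a coregulator of the CBP and p300 acetyltransferases that glucagon induces in mouse liver and that aids the coactivator PGC-1-alpha. It had 2.56, 6.36, 2.78 and 2.70 FPKM in NKO2 to NKO5, and 3.92, 4.05, 2.996, 4.67 and 1.82 FPKM in WT1, WT2, WT3, WT4 and WT6. NKO3 was the highest liver of all, whereas the other 3 Ncf1Lyz-/- livers lay near 2.7 FPKM, below every WT liver except WT6. The group means were thus alike, 3.60 ± 1.84 FPKM (SD, n = 4) and 3.49 ± 1.11 FPKM (SD, n = 5). The log2 difference was −0.00 (SE 0.33), and −0.30 without NKO3.

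Sesn1, at chr10:41809935-41908424 on the plus strand, encodes sestrin 1, a leucine-binding protein that holds back the growth kinase complex mTORC1 and whose gene p53 and FOXO factors induce. It was the one gene of the 9 with a mean log2 level above that of WT. NKO2 to NKO5 had 2.07, 3.28, 2.63 and 1.81 FPKM, and WT1, WT2, WT3, WT4 and WT6 had 2.61, 2.57, 2.19, 1.78 and 1.20 FPKM. NKO3 and NKO4 were above all WT livers, and NKO2 and NKO5 lay among them. The means of 2.45 ± 0.655 FPKM (SD, n = 4) and 2.07 ± 0.591 FPKM (SD, n = 5) gave a log2 difference of 0.25 (SE 0.25). Without WT6 it was 0.07, without NKO3 0.10 and without NKO5 0.37, and in the 6 libraries of higher depth it was −0.12.

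Single livers stood out over several genes together. WT2 was the highest WT liver for 4 of the 9 genes (Nr4a1, Sik1, Crem and Irs2) and, like WT3, the lowest for none. Its median deviation from the mean of its own group was 0.46 on the log2 scale, against −0.25 to 0.12 in the other WT livers. The scale of median ratio scaling, taken over genes present in all libraries, was 1.13 in WT2 and 0.92 to 1.07 in the other WT livers. A typical gene was thus also higher in WT2, and the share of all genes highest there was not counted. NKO3 was the lowest Ncf1Lyz-/- liver for 5 genes (Nr4a1, Sik1, Crem, Irs2 and Cebpb) and the highest for 3 (Bcl6, Cited2 and Sesn1). NKO5 was the highest of its group for Nr4a1, Sik1 and Irs2 and the lowest for Klf15, Bcl6 and Sesn1. Among WT livers, WT4 was lowest for Nr4a1, Crem and Irs2, and WT6 for Sik1, Klf15, Cited2 and Sesn1. The macrophage and Kupffer cell markers summed to 402.9 FPKM in WT2 and 393 FPKM in WT1, and to 131 to 217.7 FPKM in the other WT livers. They were highest in NKO3 among Ncf1Lyz-/- livers (328.9 FPKM, against 160 to 221.4 FPKM). Of the 13 markers, 9 had a lower mean log2 level in Ncf1Lyz-/- livers (median log2 difference −0.08). The 10 neutrophil markers, of which 4 passed the filter, summed to 23.3 FPKM in NKO5 and to 4.27 to 12.6 FPKM in the other livers. The part of these cells in the levels of the 9 genes was not tested.

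**Figure D4:**
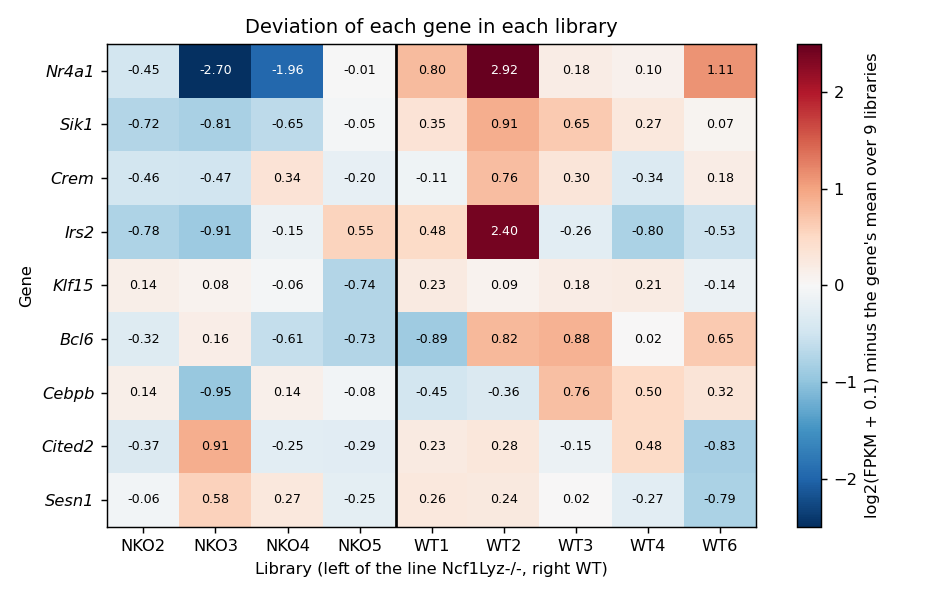
Deviation of each gene (rows) in each library (columns) from its mean over the 9 libraries, in log2(FPKM + 0.1), with Ncf1Lyz-/- livers left and WT livers right of the line. WT2 is above the mean for Nr4a1, Sik1, Crem, Irs2 and Bcl6 and below it for Cebpb, and NKO3 is below it for Nr4a1, Sik1, Crem, Irs2 and Cebpb but above it for Cited2 and Sesn1.

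Around the 9 genes, 172 other genes of 8 pathway lists were looked at, written from general knowledge with earlier results of these data known, of which 156 were tested. No list gene passed the adjusted threshold of limma. At an unadjusted p under 0.05 by limma, 14 were lower and 2 higher, beside 3.73% and 2.17% of all genes tested. Every Ncf1Lyz-/- liver lay below every WT liver for 5 list genes and above for 1, beside 1.5% and 0.713% of all genes. The median log2 difference of the list genes was −0.07, with 94 genes below 0 and 62 above, beside 49.5% of all genes below 0. Because the lists were written with earlier results known, nothing is read from these shares.

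The list of CREB and CRTC targets outside the 9 had 18 tested genes of 22, of which 16 had a log2 difference below 0 and 2 above, with a median of −0.48. None passed the adjusted threshold of limma, and 5 were lower at an unadjusted p under 0.05, beside 3.73% of all genes tested. Pck1, the rate-limiting enzyme of glucose production, had 857.1, 388.5, 527.1 and 364.9 FPKM in NKO2 to NKO5, and 1073, 1532, 1288, 1248 and 990.2 FPKM in WT1, WT2, WT3, WT4 and WT6. The groups did not overlap, like those of Sik1 and Nr4a1, but the difference of −1.27 (SE 0.24) had an adjusted p of 0.475 by limma. Ppargc1a, which encodes PGC-1-alpha, had 0.815 ± 0.180 FPKM (SD, n = 4) and 1.57 ± 0.381 FPKM (SD, n = 5), again without overlap (log2 difference −0.86, SE 0.21, adjusted p = 0.591 by limma). Tat, the tyrosine aminotransferase that glucocorticoids and cAMP induce, had 972 ± 643 FPKM (SD, n = 4) and 1685 ± 407 FPKM (SD, n = 5), with a log2 difference of −0.98 (adjusted p = 0.842 by limma) that was −0.64 without NKO3. Per1, a clock gene with a cAMP response element, had a log2 difference of −0.45 (adjusted p = 0.768 by limma). G6pc, which releases glucose, resembled Irs2 in that WT2 was far above the rest (354 FPKM in WT2, with a WT mean of 137 ± 127 FPKM, SD, n = 5, and 92.4 ± 17.3 FPKM, SD, n = 4, in Ncf1Lyz-/- livers). Its log2 difference was −0.15, 0.30 without WT2, and −1.33 in the 6 libraries of higher depth. The median of the list was −0.26 without NKO3, with 12 genes below 0, and −0.50 without WT2, with 14. When each library was left out, 12 to 15 genes were below 0. Across the main fit and the other alternatives the count was 11 to 19, where the number of genes tested also changed with the filter.

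The cAMP signal machinery itself, the receptors, cyclases, kinase subunits, phosphodiesterases and coactivators, had 25 tested genes of 34, of which 12 were below 0 and 13 above, with a median of 0.00. The adenylyl cyclase Adcy9 was higher in every Ncf1Lyz-/- liver than in any WT liver (1.87 ± 0.166 FPKM, SD, n = 4, against 1.33 ± 0.179 FPKM, SD, n = 5; log2 difference 0.46, adjusted p = 0.783 by limma). Prkar1a, a regulatory subunit of protein kinase A, was lower in every one (25.7 ± 1.45 FPKM, SD, n = 4, against 31.2 ± 1.89 FPKM, SD, n = 5; log2 difference −0.28, adjusted p = 0.784 by limma). Sik3, a relative of Sik1, had a log2 difference of −0.25 (adjusted p = 0.890 by limma).

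Glucocorticoid receptor and its targets had 14 of 18 genes below 0, with a median of −0.37. This median was −0.08 without NKO3 and −0.11 in the 6 libraries of higher depth. The genes of smallest p in this list, Per1, Dusp1 and Tat, are also in the list of CREB and CRTC targets. Tat is in the amino acid list as well, so these lists are not independent. Among them the phosphatase Dusp1 had 5.14 ± 1.91 FPKM (SD, n = 4) and 9.27 ± 3.74 FPKM (SD, n = 5), a log2 difference of −0.82 (adjusted p = 0.842 by limma). The difference of Dusp1 was −0.38 in the 6 libraries of higher depth, which leave out its 2 highest livers, WT3 and WT4 (13.9 and 12.7 FPKM). The insulin and FOXO axis, to which Irs2 belongs, had 14 of 24 genes below 0 and a median of −0.08. There the adaptor Grb14 did not overlap between groups (4.49 ± 0.653 FPKM, SD, n = 4, against 6.02 ± 0.334 FPKM, SD, n = 5; log2 difference −0.42, adjusted p = 0.708 by limma). Pdk4, a fasting-induced kinase that spares glucose, had a log2 difference of −1.64 (adjusted p = 0.839 by limma), and Trib1 one of −0.73 (adjusted p = 0.844 by limma) that was −0.47 without NKO3. The median of the insulin and FOXO axis turned to 0.01 without WT2.

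Amino acid breakdown genes, which Klf15 regulates in mouse liver, had 13 of 19 below 0 and a median of −0.10, with log2 differences of −0.95 for Got1 (adjusted p = 0.842 by limma) and −0.26 for Bckdhb (adjusted p = 0.872 by limma). Without NKO3 these were −0.47 and −0.15, and the median of the list was −0.25 without WT2 and 0.03 in the 6 libraries of higher depth. The sestrins, p53 targets and mTORC1 sensing genes, the list of Sesn1, had 15 of 24 below 0 and a median of −0.04. The p53 targets Mdm2 (−0.38, adjusted p = 0.812 by limma), Ccng1 (−0.35, adjusted p = 0.842 by limma) and Trp53inp1 (−1.34, adjusted p = 0.842 by limma) had the smallest p of that list. Trp53inp1 was −0.70 without NKO3, and the median turned to 0.02 without NKO2. The relatives of Cebpb, Klf15 and Cited2 had 10 of 19 below 0 and a median of −0.09, which was −0.31 without NKO4 and 0.04 without WT1. Klf2, a factor of endothelial cells and macrophages, led them with 3.92 ± 1.77 FPKM (SD, n = 4) and 6.66 ± 1.22 FPKM (SD, n = 5; log2 difference −0.82, adjusted p = 0.784 by limma), followed by Klf3 (−0.47, adjusted p = 0.844 by limma) and Ppara (0.36, adjusted p = 0.890 by limma). The BCL6 corepressors and STAT5 axis had 7 of 16 below 0 and a median of 0.10, which was −0.06 without NKO5. Its smallest p belonged to the growth hormone receptor Ghr (0.31, adjusted p = 0.842 by limma), followed by Bcl6b (−0.49, adjusted p = 0.890 by limma).

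**Figure D5:**
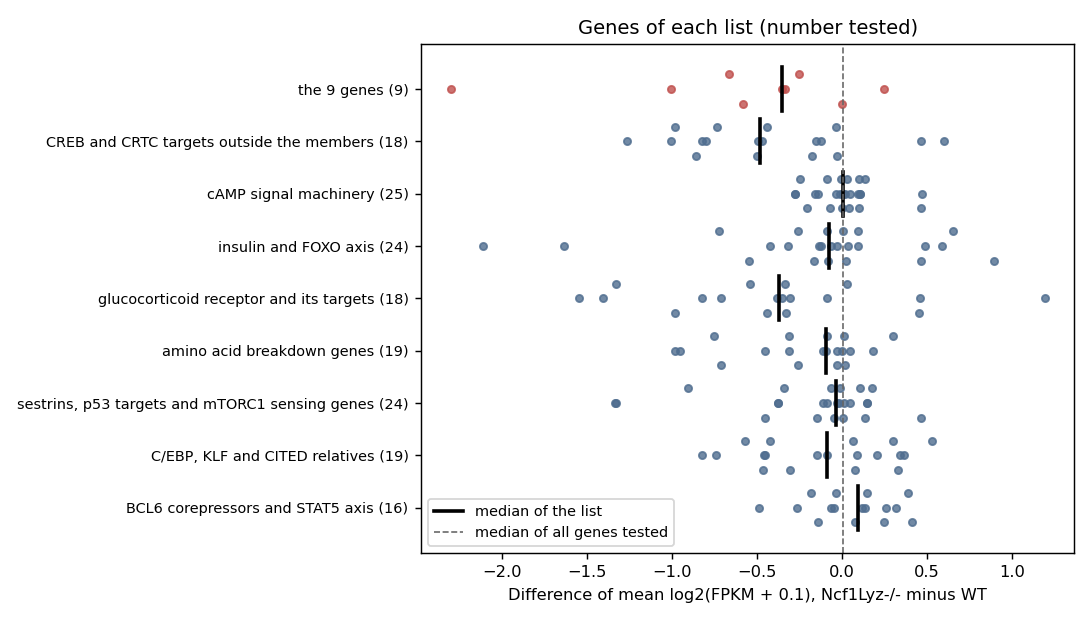
Difference of mean log2(FPKM + 0.1), Ncf1Lyz-/- minus WT, for every tested gene (points) of the 9 genes and of 8 pathway lists, with the median of each (black bar) and of all tested genes (dashed line). The median lies at −0.48 for the CREB and CRTC targets, −0.37 for the glucocorticoid list, and between −0.10 and 0.10 for the other 6 lists.

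For each of the 9, the tested genes most alike over the 9 livers were found by the mean absolute difference of log2 values, each centred on its own mean. Larp4 and Gm11843 were closest to Nr4a1, at 0.64 each, against a median of 1.178 over all tested genes, so even they followed it loosely. For Irs2 they were Tcp11l2 (0.37) and Mir6397 (0.41; median 0.75), and for Bcl6 they were Usp7 (0.25) and Gm6402 (0.28; median 0.61). Gm5587 (0.20) and Camk2n2 (0.21) were closest to Sik1, with a median of 0.54. For Cebpb, Aldh1l1 (0.12) and Lrrfip2 (0.14; median 0.52) came closest, and for Cited2 it was Proca1 (0.16) and Lzts2 (0.18; median 0.45). Wdr59 and A430005L14Rik lay at 0.13 from Crem (median 0.39), Hat1 (0.12) and Set (0.13) near Sesn1 (median 0.34), and Fam173a (0.09) and Akr1e1 (0.10) near Klf15 (median 0.32). No gene of the 9 had another of the 9 among its closest.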

How the data were processed

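Liver RNA of 9 mice was measured, with 1 column per mouse in the deposited table. Columns were placed in a group by their names, which do not carry the replicate numbers of the labels. The study's methods give stranded poly(A) libraries, paired-end sequencing, HISAT2 for mapping, StringTie for assembly and a package for differential expression as the tool for expression levels. Tool versions, the genome build and the tool that wrote the FPKM are not given in the sources used here. The authors deposited FPKM for 55401 genes, with 0.0001 for an absent gene and no counts. The authors' deposited table also holds the ratio of the groups, its log2 and the p-value and q-value of their comparison, none of which was used. To recover depth, 15169 genes that have 1 exon and 1 transcript were used, whose low values times length gather on fragment steps (48.4% to 52.6% lay within 0.1 of a step of 0.5 fragments).

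The values were taken as log2(FPKM + 0.1), and limma 3.58.1 (R 4.3.3) was fitted to the 12350 genes whose mean reached 0.5 FPKM, with a trend of variance on mean, Ncf1Lyz-/- minus WT as the contrast, no covariate and Benjamini-Hochberg adjustment. The code was tested on simulated data. Coordinates are from GENCODE M21 (GRCm38), which holds 55141 of the table's identifiers, and promoters from RefSeq (GRCm38.p6). The 9 genes and the lists were chosen with earlier results of these data known. The text names the 9, Ncf1, the 3 genes of smallest p per list, Pck1, G6pc, Ppargc1a and Tat, and the 2 genes most like each of the 9, and 1 gene that this rule takes is counted in its list but not reported here. Tried as alternatives were no filter, pseudocounts of 0.5 and 1, a mean of at least 1 FPKM, median ratio scaling, no trend, array weights, each library left out, the 6 libraries of higher depth and, for motifs, the full site alone or only bases before the start. A comparison with WT3, WT4 and WT6 was chosen after seeing the data. Python 3.11.15 and matplotlib 3.10.9 were used for tables and figures.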

Additional observations from a re-analysis of the deposited data

Results flagged for a closer look

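In 64 groups of 4 or 5 livers, 1 for each named gene and group looked at, 6 had a liver far from the others. The rule was Dixon's criterion, applied to FPKM and not to log2 values. Its chance rate of about 1 of 20 holds for normally distributed values, which was not checked for FPKM. Nothing is therefore read from the number of flags. Nr4a1 was 21.0 FPKM in WT2 (gap to the next liver over the range of the group, 0.831), and Irs2 was 23.7 FPKM in the same liver (0.826). Trib1, a pseudokinase gene of the insulin and FOXO list, was lowest in WT2, at 8.73 FPKM (0.815). In the Ncf1Lyz-/- group the liver apart was NKO3 each time. Cited2 was 6.36 FPKM there (0.943), and Prkar1a was 27.9 FPKM (0.878), both the highest of the group. Got1, the cytosolic aspartate aminotransferase, was 35.1 FPKM in NKO3 (0.935), the lowest of the group.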

How the results depend on the processing

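No paired analysis was possible because the columns of the table do not carry the replicate numbers of the labels. Those numbers count separate mice within each group, and the sources used here do not state that any mice were paired. Of 801 values for 48 results under the alternatives, 778 were labelled the same, 21 moved and 2 reversed. Counts were labelled the same within a set ratio, and the 9 genes and medians when they moved by less than the spread. A change of direction was labelled reversed only for Ncf1 and the named list genes. Irs2, Cebpb, Cited2, Sesn1 and some list medians therefore changed sign under some alternatives without that label. Genes at an adjusted p under 0.05 by limma numbered 1, 0 with no filter and with no trend, 6 with array weights, and 0 to 1 when each library was left out. At an unadjusted p under 0.05 there were 729, 1274 with no filter, 1401 with array weights, and 544 to 1232 (the latter without WT2). List genes at that level numbered 16, 26 with array weights, 9 in the 6 libraries of higher depth, and 9 (without NKO3) to 33 (without WT2). No list gene passed the adjusted threshold under any alternative. The log2 difference of G6pc reversed to 0.27 with array weights and to 0.30 without WT2. It ranged from −0.49 to 0.30 when each library was left out, and was −1.33 in the 6 libraries of higher depth. The full site alone was found in 0 of the 7 genes with a promoter window, against 5 with the 5-base sites. Irs2 was −1.76 and Cebpb 0.22 in the 6 libraries of higher depth, and Irs2 was 0.08 with array weights. The median of the 9 genes lay between −0.53 and −0.26 when each library was left out and was −0.24 against WT3, WT4 and WT6, and 6 (array weights) to 8 of them were below 0. Ncf1 gave no value at a mean of at least 1 FPKM. The cause of these moves was not tested. With 4 and 5 livers and no counts, precision is set by the spread between livers and, at the lowest levels, by the worth of 1 fragment.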
